A study of Mus musculus with 8 samples.

Results

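Mouse primary hepatocytes (MPH) were examined for H3K27ac, the acetylation of lysine 27 on histone H3 that marks active promoters and enhancers, at 9 genes of the secreted hepatokines and the insulin-like growth factor (IGF) system. The genes, *Fgf21*, *Gdf15*, *Angptl4*, *Igf1*, *Igfals*, *Ghr*, *Igfbp1*, *Igfbp2* and *Igfbp4*, were taken by name from a list, by a rule that uses no measured value, and they were 9 of 55304 gene symbols in the annotation. The list itself was drawn up with earlier results of these data known. MPH were prepared from adult male wild-type C57Bl6 mice (C57BL/6J in the study's methods) and treated for 4 h with 1 µM thapsigargin, which blocks the calcium pump of the endoplasmic reticulum (ER) and so causes ER stress (ERS), or with the vehicle, 0.04% DMSO. There were 3 H3K27ac libraries and 1 input library per treatment, and no group carried a genetic change. The comparison asked where H3K27ac differed after acute ERS. The data were 3 lists of regions on mm10, which the authors had classed as UP, DOWN or unchanged with thapsigargin, in the direction their names give, at a false discovery rate of 0.05. The lists hold positions alone, so no value per library, no fold change, no depth and no replicate error could be given, and a change in cell number or makeup and a change per cell cannot be told apart.

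The lists held 32196 regions, of which 5508 (17.1%) were UP, 3376 (10.5%) DOWN and 23312 (72.4%) unchanged. The transcription start sites (TSSs) of *Hspa5* and *Ddit3*, which encode the ER chaperone BiP and the stress factor CHOP, lay in UP regions of 6701 bp and 6277 bp. Both genes are known to be induced by ERS, and UP and DOWN are read here as higher and lower H3K27ac with thapsigargin. Of the hepatocyte markers, 8 of 8 had a TSS in a region of any class, against 1 of 6 for Kupffer cells and other leukocytes (*Cd68*), 1 of 5 for endothelial cells (*Stab2*), 0 of 5 for stellate cells and 1 of 4 for cholangiocytes (*Sox9*).

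The liver is the main source of circulating IGF1. Growth hormone binds its receptor, encoded by *Ghr*, and signals through JAK2 and STAT5 to *Igf1* and to *Igfals*, whose product, the acid labile subunit, holds IGF1 in a long-lived complex in blood. The IGF-binding proteins encoded by *Igfbp1*, *Igfbp2* and *Igfbp4* carry IGFs and limit their access to the receptor. FGF21 and GDF15 are hormones released under metabolic and cellular stress, and both genes are known targets of the stress factor ATF4 in several cell types. FGF21 acts through FGF receptors with the co-receptor β-Klotho, GDF15 acts on the brainstem receptor GFRAL, and ANGPTL4 inhibits lipoprotein lipase.

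Sequences of the TSSs and of changed regions are shown first, because they locate the acetylation described afterwards. The 250 bases upstream of a RefSeq start are given for the stress hormones, for *Igfbp4*, and for *Igfals* and *Ghr* as genes with unchanged regions at their TSSs. They were taken from GRCm38.p6 (mm10), run 5′ to 3′ on the strand of the gene, and carry in capitals each match to 11 motifs searched on both strands. The matches shown are the ATF4/CHOP composite TGATGNAA in *Fgf21*, FOX TGTTTAC and STAT5 TTCCNNGAA in *Igfals*, and AP-1 TGANTCA in *Ghr*. N stands for any base, so matches to the AP-1 pattern include tgaatca and tgattca as well as tgagtca.
Fgf21, chr7:45615491-45615740, minus strand, in an UP region: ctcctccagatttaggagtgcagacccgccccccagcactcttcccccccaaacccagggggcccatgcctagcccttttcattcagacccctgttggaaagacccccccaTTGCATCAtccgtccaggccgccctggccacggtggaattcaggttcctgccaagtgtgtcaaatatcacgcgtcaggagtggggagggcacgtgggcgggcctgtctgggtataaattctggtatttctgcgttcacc
Gdf15, chr8:70632457-70632706, minus strand, in a DOWN region: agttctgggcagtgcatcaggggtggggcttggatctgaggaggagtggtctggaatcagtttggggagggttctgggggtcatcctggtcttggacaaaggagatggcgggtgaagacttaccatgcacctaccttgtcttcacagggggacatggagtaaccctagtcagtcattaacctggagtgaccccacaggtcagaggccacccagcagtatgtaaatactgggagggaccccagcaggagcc
Igfbp4, chr11:99040994-99041243, plus strand, in an UP region: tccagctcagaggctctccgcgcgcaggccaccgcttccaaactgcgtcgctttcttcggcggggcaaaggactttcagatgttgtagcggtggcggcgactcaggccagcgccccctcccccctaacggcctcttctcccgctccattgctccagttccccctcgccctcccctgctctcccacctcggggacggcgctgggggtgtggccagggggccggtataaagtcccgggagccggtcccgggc
Igfals, chr17:24877981-24878230, plus strand, in an unchanged region: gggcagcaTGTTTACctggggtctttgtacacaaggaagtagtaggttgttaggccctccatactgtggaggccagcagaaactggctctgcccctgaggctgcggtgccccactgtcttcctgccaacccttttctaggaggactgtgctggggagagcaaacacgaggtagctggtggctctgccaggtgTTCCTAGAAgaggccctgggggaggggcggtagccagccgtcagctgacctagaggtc
Ghr, chr15:3581843-3582092, minus strand, in an unchanged region: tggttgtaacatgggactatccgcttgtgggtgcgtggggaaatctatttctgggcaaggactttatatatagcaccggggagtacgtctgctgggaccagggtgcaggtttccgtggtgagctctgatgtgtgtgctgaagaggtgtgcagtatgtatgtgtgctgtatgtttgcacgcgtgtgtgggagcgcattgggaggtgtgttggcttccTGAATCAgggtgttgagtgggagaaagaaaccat

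The central 300 bases of 3 UP regions are shown in the same way, as windows that themselves overlap no annotated exon, one upstream of *Fgf21* within the region at its TSS and one in an intron of each of *Igf1* and *Ghr*. Capitals mark the ATF4/CHOP composite in the *Fgf21* and *Ghr* windows, and 2 AP-1 matches and 1 STAT5 match in the *Igf1* window. All 3 are windows that held a match. The central windows of the other UP regions of *Igf1* held none. Nor did those of the changed regions of at least 300 bp of *Gdf15*, *Angptl4*, *Igfals*, *Igfbp1* and *Igfbp4*. The windows of the other changed regions of *Fgf21* and *Ghr* held 1 match each, to AP-1 or to the nuclear receptor site AAAGGTCA. ATF4/CHOP matches stood in the central 300 bp of 9.84% of UP and 4.51% of DOWN regions of at least that width.
Fgf21 upstream, chr7:45616112-45616411, minus strand: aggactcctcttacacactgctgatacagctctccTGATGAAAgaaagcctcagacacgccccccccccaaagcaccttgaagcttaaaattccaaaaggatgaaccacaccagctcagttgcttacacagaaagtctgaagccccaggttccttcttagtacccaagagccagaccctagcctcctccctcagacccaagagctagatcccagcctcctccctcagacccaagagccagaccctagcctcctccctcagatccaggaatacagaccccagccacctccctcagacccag
Igf1 intron, chr10:87876524-87876823, plus strand: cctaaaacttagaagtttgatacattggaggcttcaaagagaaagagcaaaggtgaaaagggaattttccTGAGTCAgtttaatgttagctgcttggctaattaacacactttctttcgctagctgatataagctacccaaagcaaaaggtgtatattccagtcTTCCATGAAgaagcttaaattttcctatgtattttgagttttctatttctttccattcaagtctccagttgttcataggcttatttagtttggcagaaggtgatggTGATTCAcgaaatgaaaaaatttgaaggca
Ghr intron, chr15:3404452-3404751, minus strand: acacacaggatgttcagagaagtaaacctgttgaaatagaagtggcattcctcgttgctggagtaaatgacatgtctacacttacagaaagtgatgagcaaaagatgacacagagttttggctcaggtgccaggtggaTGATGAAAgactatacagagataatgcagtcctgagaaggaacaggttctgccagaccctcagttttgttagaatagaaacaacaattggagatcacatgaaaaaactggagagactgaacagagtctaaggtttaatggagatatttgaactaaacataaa

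The TSSs of the 9 genes were spread over every class. *Fgf21* and *Igfbp4* lay in UP regions, *Gdf15* and *Angptl4* in DOWN regions, *Igf1*, *Igfals* and *Ghr* in unchanged regions, and *Igfbp1* and *Igfbp2* in no region. Hence 2 of the 7 genes with a region at a TSS were UP and 2 were DOWN. Of the 12261 genes that had any such region, 21.4% were placed in an UP region and 8.91% in a DOWN region, and for 70.1% every region at a TSS was unchanged. The shares of the 7 genes were not tested against these.

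**Figure D1:**
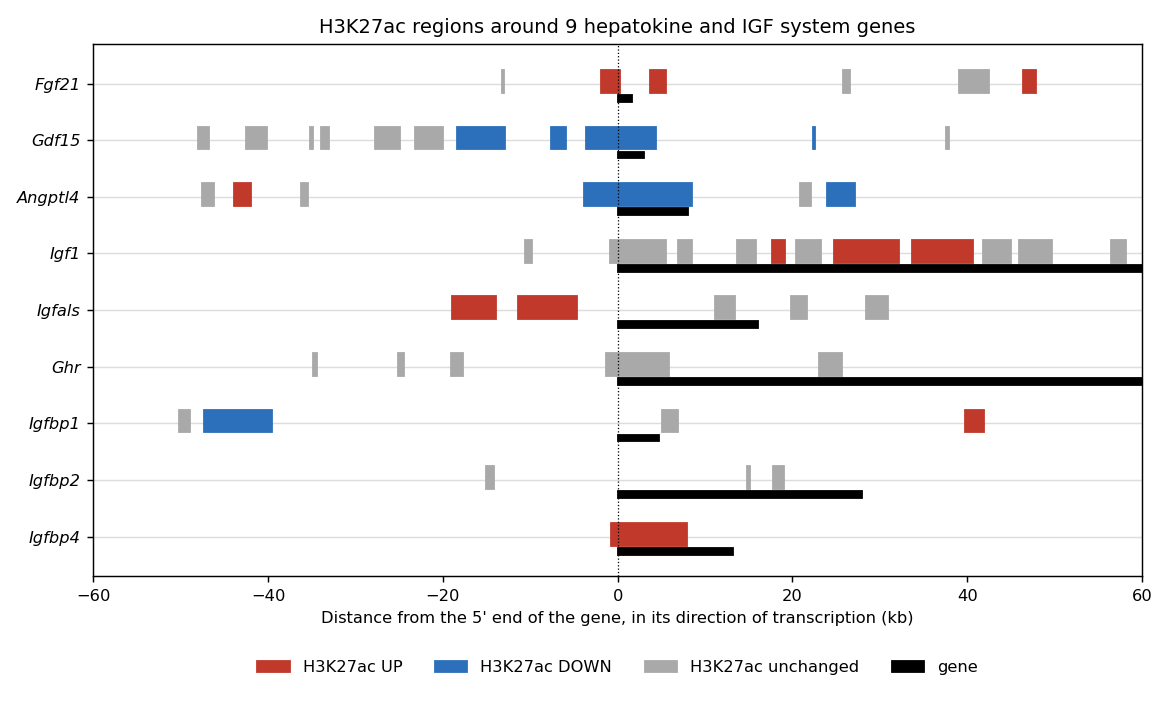
H3K27ac regions within 50 kb of a TSS or in the body of each gene, drawn up to 60 kb from its 5′ end, which is at 0 on the horizontal axis (kb, direction of transcription to the right); red is UP, blue DOWN, grey unchanged, and black bars mark the genes. Regions outside the gene and more than 50 kb from its TSSs are not drawn. Nor are any regions beyond 60 kb, which include the *Igf1* UP region that begins at 67147 bp and all changed regions of *Ghr*. *Fgf21* and *Igfbp4* start in red regions, *Gdf15* and *Angptl4* in blue ones, and no region covers the starts of *Igfbp1* and *Igfbp2*.

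The stress hormones *Fgf21* and *Gdf15* lay in opposite classes. *Fgf21* (ENSMUSG00000030827, chr7:45613886-45615490, minus strand, 1 transcript) had its TSS in an UP region of 2187 bp at chr7:45615169-45617355. This region reached 1865 bp upstream of the TSS and 321 bp into the gene, covering 20.1% of it. The same region holds a TSS of *Fut1*, a fucosyltransferase gene, so its change cannot be assigned to either gene. Its width was close to the median of UP regions at a TSS, being wider than 51.1% of 2047 such regions. Within 50 kb of the TSS there were 3 UP, 0 DOWN and 3 unchanged regions. The second UP region (1800 bp, chr7:45609958-45611757) began 3733 bp on the gene side of the TSS, past the end of the gene, and had the *Fgf21* TSS as its nearest protein-coding TSS. The other UP region (1423 bp, 46429 bp from the TSS) lay in *Hsd17b14*, nearest to the TSS of *Bcat2*. Of 16193 protein-coding genes with a region within 50 kb, 4.45% had at least 3 UP and 0 DOWN regions, a limit taken from the counts of *Fgf21* itself.

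*Gdf15* (ENSMUSG00000038508, chr8:70629393-70632456, minus strand, 2 transcripts) lay whole within a DOWN region of 8029 bp at chr8:70628045-70636073. This region held both TSSs, ran from 3617 bp upstream of the gene start to past its end, and was wider than 84.1% of the 928 DOWN regions at a TSS. Around it were 3 further DOWN regions, 7 unchanged regions and 0 UP regions within 50 kb. A DOWN region of 1731 bp began 5949 bp upstream and was nearest to the *Gdf15* TSSs. Another of 5536 bp, 12874 bp upstream, lay in *Pgpep1*, the neighbouring gene, which had no TSS in an UP or DOWN region. The narrowest, 235 bp wide and 22000 bp downstream, was nearest to the TSS of *Ssbp4*. At least 4 DOWN and 0 UP regions were found for 0.494% of the protein-coding genes, that is 80 of 16193, *Gdf15* included. This limit was taken from the counts of *Gdf15* itself. *Gdf15* had 11 regions within 50 kb beside a median of 4 for these genes, and genes with fewer than 4 could not reach the limit. Only 2 other protein-coding genes had the same class at the TSS and the same counts within 50 kb, and *Ephx2* (6147 bp at the TSS) was the closest in width.

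The exact motif matches in the promoters also differed between these genes. The window of *Fgf21* printed above holds ttgcatca, the reverse strand of the ATF4/CHOP composite, 139 bases upstream of the TSS, and this motif was found in 3.97% of 32851 promoter windows. The *Gdf15* windows, from both RefSeq starts, matched none of the 11 motifs. Only exact matches were counted, so gtgcatca in the printed *Gdf15* window, which differs from ttgcatca in its first letter, was not marked. The whole region at the *Fgf21* TSS held 4 ATF4/CHOP matches, 1027, 886 and 139 bases upstream of the TSS and 182 bases downstream. The search of whole regions was added after the central windows had been seen. The *Gdf15* region held 1 match, 1452 bases upstream, the *Angptl4* region 2 and the *Igfbp4* region 1. Per kb this was 1.83 matches for *Fgf21*, 0.125 for *Gdf15*, 0.162 for *Angptl4* and 0.115 for *Igfbp4*, beside 0.215 over all UP and 0.147 over all DOWN regions. At least 4 matches occurred in 0.944% of UP regions (52 of 5508), in 1.21% of DOWN ones (41 of 3376) and in 0.189% of those unchanged (44 of 23312). Among regions no wider than that of *Fgf21*, 4 of 3608 in the UP list had that many, as did 0 of 1653 in the DOWN list and 1 of 18569 in the unchanged list. This motif was singled out after its matches had been seen, and both limits, the count and the width, were those of the *Fgf21* region. That region is itself among the UP regions counted. A match is a string of letters and not a bound site, and binding of ATF4 or CHOP was not examined here.

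*Angptl4* (ENSMUSG00000002289, chr17:33773750-33781830, minus strand) was the other gene covered whole by a DOWN region. All 4 of its TSSs lay in a DOWN region of 12320 bp at chr17:33773312-33785631, the widest region at a TSS among the 9 genes, and wider than 94.6% of DOWN regions at a TSS. The region extended 3801 bp upstream of the gene start. Within 50 kb there were 2 DOWN, 1 UP and 3 unchanged regions. The second DOWN region (3252 bp) lay in *Rab11b*, which had no TSS in an UP or DOWN region. The UP region (1950 bp, 41893 bp upstream) held TSSs of *Ndufa7*, a subunit of respiratory complex I, and of the ribosomal protein gene *Rps28*.

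**Figure D2:**
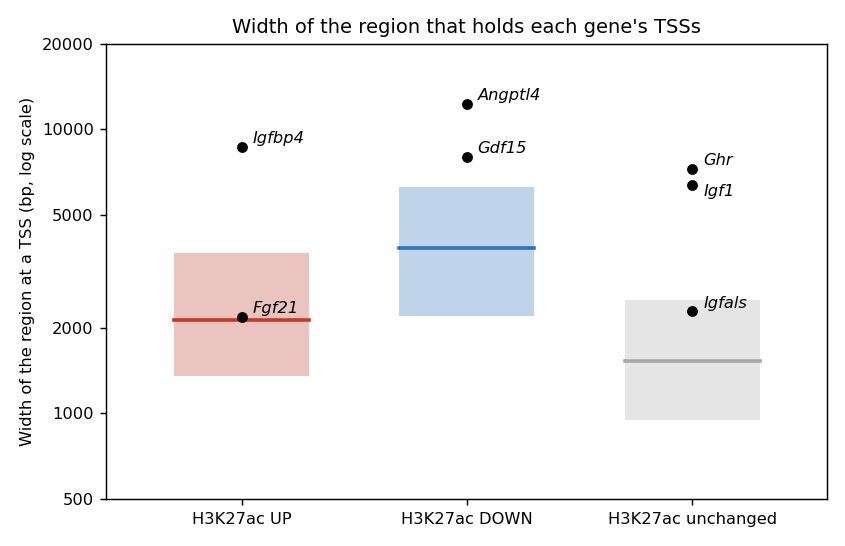
Width of the region at the TSSs (bp, log scale) of the 7 genes that had one, as black points, by class; bars show the median and boxes the interquartile range over all regions of that class at a TSS. *Fgf21* sits at the UP median of 2136 bp, *Igfals* lies inside its box, and the other 5 genes lie above their boxes.

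The growth hormone pathway genes *Igf1*, *Igfals* and *Ghr* shared unchanged regions at all or most of their TSSs and differed in the regions around them. *Igf1* (ENSMUSG00000020053, chr10:87858265-87937042, plus strand) had an unchanged region over all 8 TSSs, 6351 bp across and wider than 96.5% of the 7667 unchanged regions at a TSS, which also held a TSS of the antisense gene *Igf1os*. Along the gene body lay 4 UP, 0 DOWN and 7 unchanged regions, and H3K27ac regions covered 49.9% of the gene, 23.4% by UP and 26.5% by unchanged ones. All 4 UP regions were intronic. Measured from the gene start they began at 17679 bp (1461 bp wide), 24765 bp (7466 bp), 33623 bp (7017 bp) and 67147 bp (2492 bp). The first 3 were within 50 kb of a TSS, and their nearest protein-coding TSS was that of *Igf1* in each case. The 1461-bp region, whose centre is printed above, held 3 AP-1 matches and 1 each of the STAT5, FOX and ATF4/CHOP motifs. Per kb this was 2.05 for AP-1 and 0.684 for each of the others, the latter being 1 match in a narrow region. Over all UP regions it was 0.586 for AP-1, 0.17 for STAT5, 0.169 for FOX and 0.215 for ATF4/CHOP. The other UP regions of *Igf1* held 1.07, 0.285 and 0.803 AP-1 matches per kb, in order along the gene. For STAT5 the rates were 0.402, 0.143 and 0.401. FOX stood at 0.402 and 0.143 in the 7466-bp and 7017-bp regions alone, and ATF4/CHOP at 0.401 in the 2492-bp region alone. As for the printed centre, AP-1 matches stood in the central 300 bp of 25.4% of UP and 12.9% of DOWN regions of at least 300 bp, and STAT5 matches in 4.98% and 4.9%.

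**Figure D3:**
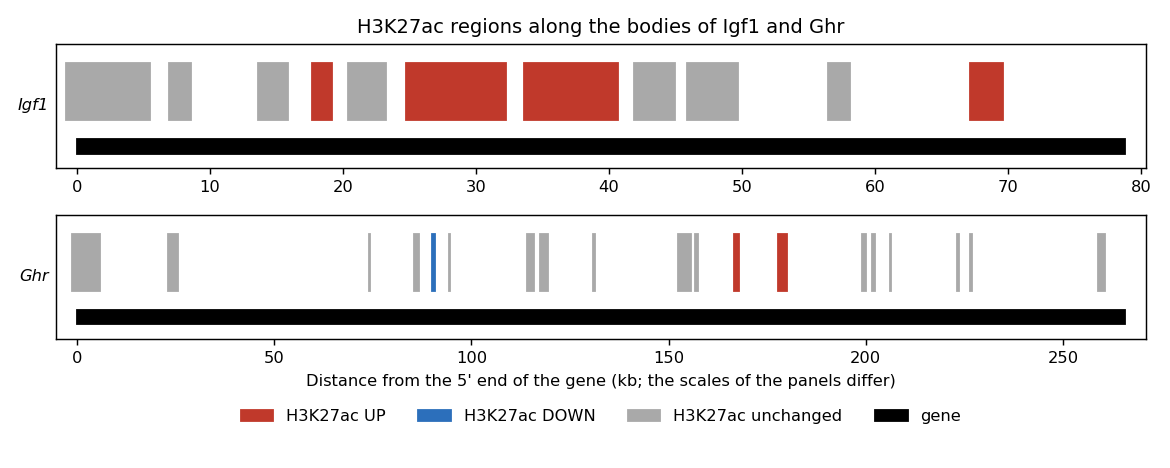
H3K27ac regions along *Igf1* (upper panel) and *Ghr* (lower panel) against the distance from the 5′ end of the gene (kb, scales differ); red is UP, blue DOWN and grey unchanged, and the black bar is the gene. *Igf1* shows 4 UP regions in its introns, and *Ghr* shows 2 UP regions and 1 DOWN region among 16 unchanged ones.

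*Ghr* (ENSMUSG00000055737, chr15:3317760-3583492, minus strand) is the longest of the 9 genes, at 265733 bp. An unchanged region of 7258 bp, wider than 97.6% of its class at a TSS, held 8 of its 9 TSSs, and the TSS at chr15:3471644 was in no region. Within 50 kb of its TSSs there were 13 unchanged regions, 1 DOWN region and 0 UP regions. The DOWN region was intronic and 885 bp wide, 21061 bp from the nearest TSS. The gene body held 2 UP regions as well, of 2521 bp and 1188 bp, which were intronic and lay 65782 bp and 54748 bp from the nearest *Ghr* TSS. Regions covered 10.4% of the gene body, 8.68% by unchanged, 1.4% by UP and 0.333% by DOWN regions.

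*Igfals* (ENSMUSG00000046070, chr17:24865997-24882010, plus strand) had an unchanged region at 4 of its 5 TSSs, 2292 bp across and wider than 71.1% of its class at a TSS. The remaining TSS, at the 5′ end of the gene model, was in no region. Upstream lay 2 UP regions of 6722 bp and 4986 bp, the nearer one 4628 bp from that 5′ end. Both held TSSs of *Hagh*, a glyoxalase gene, and the farther one a TSS of *Fahd1* also, so that neither had an *Igfals* TSS as the nearest. Of 3 promoter windows of *Igfals*, the one printed above matched FOX 242 bases and STAT5 58 bases upstream of the start, motifs that 3.65% and 4.81% of promoter windows held. AP-1 matches stood 37 bases upstream of the *Igf1* start (tgaatca), 34 bases upstream of 1 of 2 *Ghr* starts (tgaatca) and 39 bases upstream of 1 of 2 *Igfbp2* starts (tgagtca). The AP-1 pattern, with any base at its centre, was held by 7.81% of windows. The other 2 windows of *Igfals* and the other window of each of *Ghr* and *Igfbp2* held no match to the 11 motifs.

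The 3 IGF-binding protein genes differed from each other. *Igfbp4* (ENSMUSG00000017493, chr11:99041244-99054392, plus strand) had all 6 TSSs in an UP region of 8696 bp at chr11:99040429-99049124, wider than 95.4% of UP regions at a TSS and covering 59.9% of the gene. No other region of any class lay within 50 kb. Its promoter window matched none of the 11 motifs.

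*Igfbp1* (ENSMUSG00000020429, chr11:7197782-7202546, plus strand), a gene that insulin is known to repress in hepatocytes, had no region at its TSS or in its body. The stretch without a region spanned 44697 bp, from 39569 bp upstream to 5129 bp downstream of the TSS. The nearest region was unchanged (1727 bp) and lay past the end of the gene. A DOWN region of 7721 bp upstream lay in *Adcy1*, an adenylyl cyclase gene, and an UP region of 2126 bp, 39786 bp downstream, was nearest to the TSS of *Igfbp3*. *Igfbp2* (ENSMUSG00000039323, chr1:72824503-72852474, plus strand) had none of its 3 TSSs in a region and 28856 bp around the gene start without one. It had 3 unchanged regions and 0 changed ones within 50 kb, of which 2, of 390 bp and 1190 bp, were intronic. A TSS in no list may have had no peak or may have lain in a significant region with mixed bins, which the authors discarded, and these cannot be told apart here. No region at a TSS was also found for 39.4% of the protein-coding genes with a region within 50 kb.

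Over the 9 loci, 60 distinct regions lay within 50 kb of a TSS, of which 11 were UP, 8 DOWN and 41 unchanged. UP regions were 57.9% of the changed ones (95% exact binomial interval 33.5 to 79.7%), beside 62.0% of all 8884 changed regions. The interval covers counting error only, and regions of 1 locus are not independent. There were more UP than DOWN regions for 4 genes (*Fgf21*, *Igf1*, *Igfals* and *Igfbp4*), more DOWN than UP for 3 (*Gdf15*, *Angptl4* and *Ghr*) and as many of each for *Igfbp1* and *Igfbp2*. Among all protein-coding genes with a region within 50 kb, 37.6% had more UP and 17.4% had more DOWN regions. The median number of regions was 6 for the 9 genes and 4 for all these genes.

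**Figure D4:**
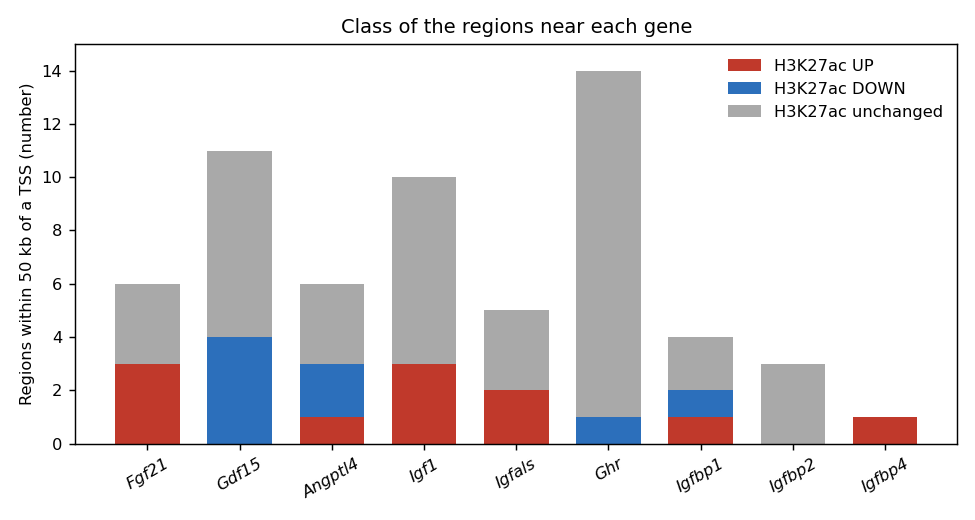
Number of H3K27ac regions within 50 kb of a TSS for each gene, stacked by class (red UP, blue DOWN, grey unchanged). *Gdf15* has 4 DOWN and no UP regions, *Fgf21* and *Igf1* have 3 UP and no DOWN regions each, and *Ghr* has the most regions, 14, of which 13 are unchanged.

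Gene bodies held 37 distinct regions, and 8 of the 11 changed ones were UP (72.7%, interval 39 to 94%), 4 of them in *Igf1* and 2 in *Ghr*. Of all changed regions, in gene bodies or not, 62.0% were UP, and this value lies inside the interval. As above, the interval covers counting error only. By class at the TSS and counts within 50 kb, the genes most like each member were *Fut1* for *Fgf21* (the same region, among 29 other genes with that pattern), *Trim25* for *Angptl4* (of 10), *Ccs* for *Igf1* (of 10), *Apex1* for *Igfals* (of 66), *Dgat2* for *Ghr* (of 2) and *Esd* for *Igfbp4* (of 148).

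The wider pathway was described from 3 lists. Of 22 other genes of growth hormone and IGF action, 12 had a TSS in a region, 2 of them in an UP and 1 in a DOWN region, beside the 21.4% and 8.91% over all genes with a region at a TSS. *Jak2*, the kinase bound to the growth hormone receptor, lay in an UP region of 3347 bp. *Igf2r*, which clears IGF2, had a TSS in an UP region of 1396 bp and another in an unchanged region of 1541 bp. *Socs2*, an inhibitor of growth hormone signalling, lay in a DOWN region of 3653 bp. The other 9, *Stat5a*, *Stat5b* and *Insr* among them, lay in unchanged regions alone, and 10 lay in no region, including *Igf1r* and *Igf2*.

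Of 18 other secreted liver factors or their partners, 14 had a TSS in a region, 0 in UP and 5 in DOWN regions, with 9 in unchanged regions alone, against the same 21.4% UP and 8.91% DOWN over all such genes. The 5 were *Ahsg*, which encodes fetuin-A (25256 bp), the selenium carrier *Selenop* (7484 bp), the activin antagonist *Fst* (3744 bp) and the inhibin and activin subunit genes *Inhba* (5435 bp) and *Inhbc* (3064 bp). *Selenop* had 7 DOWN and 0 UP regions within 50 kb. Of 10 receptors and lipases on which the secreted proteins act, 5 had a TSS in a region, 1 in an UP and 1 in a DOWN region (21.4% and 8.91% over all such genes). The hepatic lipase gene *Lipc* was in an UP region of 15850 bp and *Fgfr4* in a DOWN region of 2580 bp, while *Fgfr1*, *Fgfr3* and the co-receptor gene *Klb* were in unchanged regions. *Gfral* had no region at its TSS. The lists were small, and their shares were not tested.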

How the data were processed

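H3K27ac ChIP-seq was performed on MPH with 3 libraries from independent preparations and 1 input per treatment. Per the labels and methods, the authors aligned reads to mm10 with Bowtie, called broad peaks on pooled libraries with MACS2, and compared treatments with csaw paired by mouse (bins of 150 bp, reads extended to 200 bp, prior count 5 against input, loess normalization). Bins overlapping a peak by at least 75 bp were combined. Significant regions (false discovery rate up to 0.05) were UP when rising bins outnumbered falling ones by a ratio of 2 or more, DOWN at 0.5 or less, and discarded in between. The deposited lists hold region positions (bp), without counts, signal or p-values, so depth is unknown and no test was run. In the printed code the order of factor levels makes the tested coefficient appear to be vehicle relative to thapsigargin, although its comment names the opposite contrast. The list names were used as deposited, and *Hspa5* and *Ddit3*, known ERS-induced genes, lay in UP regions. The paper reports that genes induced by ERS were enriched at its UP regions, and that repressed genes were tied more strongly to its DOWN regions.

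Regions were matched to GENCODE M21 TSSs and gene bodies with Python 3.11.15 and pandas 2.3.3, tested on simulated data, and sequences were read with pysam 0.24.0. RefSeq promoter windows (250 bases before to 50 after the start) were used for 8 of the 9 genes, all but *Angptl4*. Motifs were the ATF4/CHOP composite TGATGNAA, ERSE (CCAAT followed 9 bases later by CCACG), UPRE TGACGTGG, CRE TGACGTCA, which shares its first 6 letters with UPRE, D-box TTANGTAA, C/EBP TTGCNCAA, a nuclear receptor site AAAGGTCA, HNF4 CAAAGTCCA, FOX TGTTTAC, STAT5 TTCCNNGAA and AP-1 TGANTCA. Named genes were the 9 genes, genes sharing their TSS regions, genes of 3 lists (those that changed, with examples of those that did not, which were chosen after their values were seen), and for each gene the one of the same class and counts that was closest in width at the TSS; neighbouring genes at a region were named with it. The members and lists were chosen with earlier results of these data known. Alternatives varied the distance, the TSS definition, the overlap, the region width and the unit of shares.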

Additional observations from a re-analysis of the deposited data

How the results depend on the processing

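Of 97 values recomputed under alternative settings, 89 were labelled as kept, 7 as moved and 1 as reversed. A share was labelled as kept anywhere inside the wide binomial interval of the main value. A difference for a single gene was kept if its sign held. Counts of genes had a loose limit too. Within 100 kb, 6 genes had more UP and 2 more DOWN regions, beside 4 and 3 within 50 kb, and both were labelled as kept. The number of genes with a TSS in an UP region went from 2 to 1 when 500 bp both upstream and downstream of a TSS had to be covered, since the *Fgf21* region reaches 321 bp into the gene. For *Ghr*, UP minus DOWN regions went from -1 within 50 kb to 1 within 100 kb, where its intronic UP regions enter. It was 0 within 10 kb, from the 5′ end of the gene alone, or with regions of at least 1 kb. The same difference was 0 for *Igf1* within 10 kb, 1 for *Igfbp1* within 100 kb, and 0 for *Igfals* when the nearest protein-coding TSS had to be its own. The UP share of changed regions within 50 kb ranged from 50% (within 25 kb) to 71% (within 100 kb), and in gene bodies from 60.9% (in base pairs) to 80% (regions of at least 1 kb). No paired analysis was possible because the deposited lists hold no values per library. Nor could any library be left out, or the authors' threshold be varied.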
